A study of Rattus norvegicus with 6 samples.

Results

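Contractile and actin-regulated genes were compared between 2 treatments of rat (Rattus norvegicus) primary microglia in culture. The cells spent 24 h with PSNPs, which are polystyrene nanoplastics, or with the near-infrared dye IR-813, whose libraries the deposited tables call con. Each treatment had 3 libraries, of poly(A)-selected RNA from cells shaken loose from co-cultures. The labels give no dose, animal age or untreated library, and they do not say whether the replicates came from separate cultures, so the spread between libraries may be technical. With no untreated library, "higher" and "lower" mean PSNPs relative to IR-813, and an effect of PSNPs and an effect of IR-813 cannot be told apart. The set holds 10 genes, of which 9 were among the 16876 gene symbols of the count table: the actins Acta2 and Actg2, the actin-binding proteins Tagln and Cnn1, the myosin light chain Myl9, the tropomyosins Tpm1 and Tpm2, and the responsive genes Thbs1 and Ankrd1. Cnn2, the non-muscle calponin, was not analysed here. The genes were chosen by their counts in these same PSNPs and IR-813 libraries, so their differences are given as a description, with no test.

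Smooth-muscle cells contract by sliding myosin along actin filaments that carry tropomyosin and calponin, and activated fibroblasts, pericytes and some glia can switch on part of the same programme. Many of these genes share a control: serum response factor (SRF) binds a DNA element called the CArG box, and its cofactors of the myocardin-related (MRTF) family enter the nucleus when free actin is drawn into filaments. The coactivators YAP and TAZ, which act through TEAD proteins, respond to the same tension of the cytoskeleton, and Thbs1 and Ankrd1 are among the genes they are known to drive. In brain, Acta2, Tagln and Cnn1 are best known from the smooth muscle of arteries and arterioles.

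The promoter sequence of the gene shows where such elements lie. RefSeq promoter windows of build GRCr8, from 250 bases before to 50 bases after the annotated start, were matched by symbol for 7 of the 10 genes. They were searched for the CArG box, also with 1 departure allowed in its central run of A and T, and on both strands for GGAATG, the core of the TEAD element. The 4 windows printed are those of the 3 measured genes with a match and, for contrast, that of Tpm2, the one gene of the set that was higher with PSNPs. They lie at chr1:241172454-241172753 on the minus strand (Acta2), chr3:125510000-125510299 on the plus strand (Thbs1), chr8:76543366-76543665 on the minus strand (Tpm1) and chr5:62575677-62575976 on the minus strand (Tpm2). Capitals mark GGAATG and the CArG-like words.
Acta2: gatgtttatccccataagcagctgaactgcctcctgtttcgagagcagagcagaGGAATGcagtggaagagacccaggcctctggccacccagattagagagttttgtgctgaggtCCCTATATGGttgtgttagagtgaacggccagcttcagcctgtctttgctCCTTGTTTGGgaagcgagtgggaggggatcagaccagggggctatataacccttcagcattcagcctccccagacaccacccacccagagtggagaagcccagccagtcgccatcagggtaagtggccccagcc
Thbs1: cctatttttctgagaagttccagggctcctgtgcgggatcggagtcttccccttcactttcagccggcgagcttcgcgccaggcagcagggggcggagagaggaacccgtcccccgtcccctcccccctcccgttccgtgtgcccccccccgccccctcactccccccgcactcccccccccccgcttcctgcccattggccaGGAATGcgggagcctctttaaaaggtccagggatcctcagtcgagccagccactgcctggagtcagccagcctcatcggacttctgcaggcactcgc
Tpm1: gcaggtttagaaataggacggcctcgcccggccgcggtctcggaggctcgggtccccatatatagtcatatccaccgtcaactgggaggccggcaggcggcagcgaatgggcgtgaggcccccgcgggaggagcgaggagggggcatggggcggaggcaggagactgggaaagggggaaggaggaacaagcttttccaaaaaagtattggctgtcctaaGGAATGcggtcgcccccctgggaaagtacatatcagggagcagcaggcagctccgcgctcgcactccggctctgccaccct
Tpm2: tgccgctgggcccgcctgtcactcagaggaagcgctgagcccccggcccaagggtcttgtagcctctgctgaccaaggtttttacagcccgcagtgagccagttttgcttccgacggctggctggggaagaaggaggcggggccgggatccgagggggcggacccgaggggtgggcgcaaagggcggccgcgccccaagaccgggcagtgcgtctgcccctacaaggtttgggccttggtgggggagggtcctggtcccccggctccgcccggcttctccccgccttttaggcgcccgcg

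The Acta2 window held 2 CArG-like words, CCCTATATGG beginning 134 bases and CCTTGTTTGG beginning 84 bases before the start, each with 1 departure from the exact box. It also held GGAATG, beginning 196 bases before the start. Thbs1 and Tpm1 each held GGAATG alone, beginning 47 and 31 bases before the start. An exact CArG box stood only in the Cnn2 window, among the 7, and no match was found in the windows of Actg2, Cnn1 and Tpm2. Of 33469 rat promoter windows of this length, 1.64% held an exact CArG box, 9.42% held one with up to 1 departure, and 14.2% held GGAATG on either strand. These matches describe letters in a window and are not shown to be sites of binding.

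Between 19166605 and 22553507 counts were assigned per library, and 8 of the 9 measured genes passed the filter on low counts. By edgeR's quasi-likelihood test 41.0% of the 11679 tested genes differed between the treatments, 20.9% higher and 20.1% lower with PSNPs, and the 3 libraries of one group lay wholly on one side of the other for 61.4%. Of the 8 genes of the set that were tested, 7 were among the lower and 1, Tpm2, among the higher. Nothing is read from that count, since the genes were picked on this contrast. With scaling by library size alone, 40.5% of the calls over the whole table were higher, in place of 50.9%. PSNPs replicate 3 stood apart from the other PSNPs libraries on the second principal component, which held 15.6% of the variance. RNA was pooled from many cells, so fewer cells of a type and less RNA per cell cannot be told apart here.

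Acta2, the smooth-muscle alpha-actin, had 2.57, 2.02 and 2.51 CPM (counts scaled to a common library size with TMM factors) in the PSNPs libraries, against 26.6, 22.2 and 37.75 CPM in the IR-813 libraries. The groups were far apart, and the spread was widest within IR-813, where replicate 3 was the highest. The log2 fold change was −3.60 ± 0.24 (estimate ± SE), or 12.15-fold lower with PSNPs. Actg2, the gamma-actin of visceral smooth muscle, was close to absent, with 1 read over the 3 PSNPs libraries and 18 over the 3 IR-813 libraries. One IR-813 library also held 0 reads of it, so the groups overlapped, and the gene was not tested. The ratio of its pooled rates was 0.0578, a description that leaves out the spread between libraries (6, 0 and 12 reads with IR-813). The coding sequences of actin genes are very alike, so reads may have been split among them with error.

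Tagln, which encodes the actin-bundling protein transgelin (SM22-alpha), was the most abundant gene of the set in CPM with IR-813, while with PSNPs it lay below Tpm1. It stood at 84.0, 80.35 and 116 CPM with PSNPs, against 311.5, 304.5 and 371 CPM with IR-813. Every PSNPs library lay below every IR-813 library, with a log2 fold change of −1.82 ± 0.16. Cnn1, the smooth-muscle calponin that binds actin and slows myosin, had 4.73, 3.40 and 5.22 CPM with PSNPs, against 18.9, 21.7 and 25.5 CPM with IR-813. It was 4.94-fold lower (log2 −2.30 ± 0.20), without overlap.

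Myl9, a regulatory light chain whose phosphorylation starts contraction, had 18.1, 15.7 and 22.9 CPM with PSNPs, against 31.4, 30.2 and 37.7 CPM with IR-813. Its difference was smaller than that of the actin-binding genes, at −0.81 ± 0.16 on the log2 scale. The tropomyosins, which wind along the actin filament and gate myosin, went apart. Tpm1 had 112, 107 and 119 CPM with PSNPs, against 143, 138 and 170.3 CPM with IR-813 (log2 −0.42 ± 0.10). Tpm2, in contrast, had 27.4, 31.6 and 38.3 CPM with PSNPs, against 20.1, 17.8 and 18.8 CPM with IR-813 (log2 0.78 ± 0.14). Neither tropomyosin overlapped between the groups, and the counts are per gene, so muscle and non-muscle splice forms are not told apart.

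Thbs1, the matrix glycoprotein thrombospondin-1 that can activate latent TGF-beta, differed most. It had 9.10, 10.35 and 7.10 CPM with PSNPs, against 180.1, 188 and 121 CPM with IR-813. The groups were far apart, and replicate 3 was the lowest library of each. The log2 fold change was −4.20 ± 0.23, or 18.4-fold lower. Ankrd1, an ankyrin-repeat protein of stretched muscle and a common readout of YAP, was rare in both groups. It had 7 reads over the 3 PSNPs libraries and 53 over the 3 IR-813 libraries, a ratio of pooled rates of 0.137. One PSNPs library held 0 reads, no PSNPs library exceeded 4, and each IR-813 library held 17 to 19. Ankrd1 passed the count filter only through its IR-813 libraries, so it had to differ to be tested. Its fitted log2 fold change of −2.73 ± 0.54 depends on the prior count. Without PSNPs replicate 3 the log2 fold changes were −3.64 for Acta2, −2.00 for Tagln, −2.42 for Cnn1, −0.97 for Myl9, −0.46 for Tpm1, 0.64 for Tpm2, −4.07 for Thbs1 and −2.97 for Ankrd1.

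**Figure D1:**
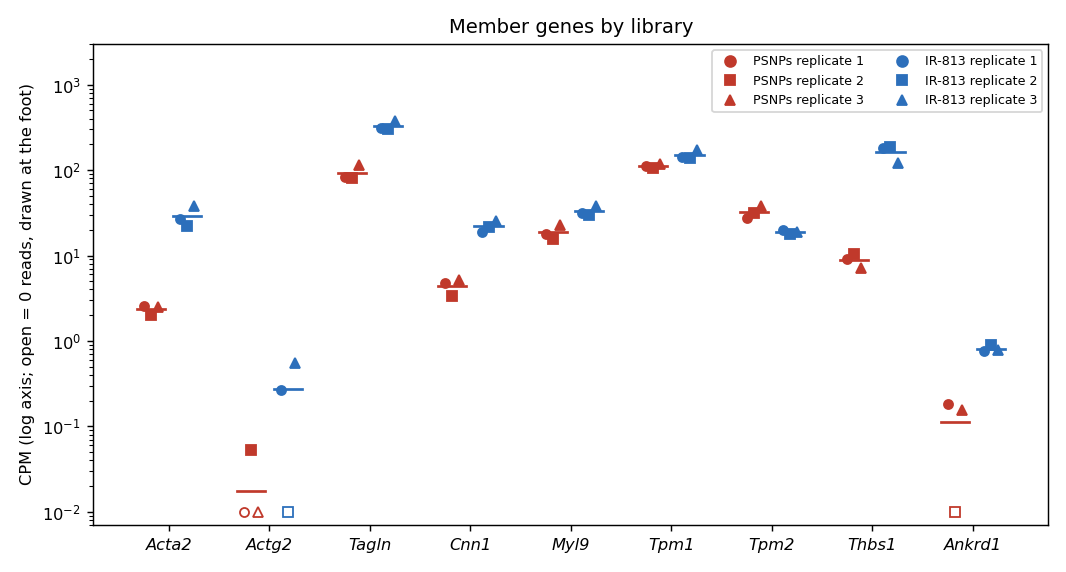
CPM of the 9 measured genes in each library on a log axis, with PSNPs in red left of IR-813 in blue, 1 symbol per replicate and a bar at the group mean; open symbols at the foot hold 0 reads. Acta2, Tagln, Cnn1, Myl9, Tpm1, Thbs1 and Ankrd1 lie lower in all PSNPs libraries, Tpm2 lies higher, and Actg2 overlaps.

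The members also varied within each group, and not all in one direction. Among the IR-813 libraries replicate 3 was the highest for 6 of the 9 genes, with Acta2 at 1.55 times and Tagln at 1.205 times the mean of the other 2 libraries. Thbs1 went the other way, at 0.657 times the mean of the other 2 in that library. Among the PSNPs libraries replicate 3 was the highest for 5 of the 9 genes, with Tagln at 1.41 times and Myl9 at 1.35 times the others, while Thbs1 stood at 0.730 times. In both groups, therefore, the library with the most Tagln, Cnn1, Myl9 and Tpm1 had the least Thbs1. These are single libraries, and the difference was not tested.

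**Figure D2:**
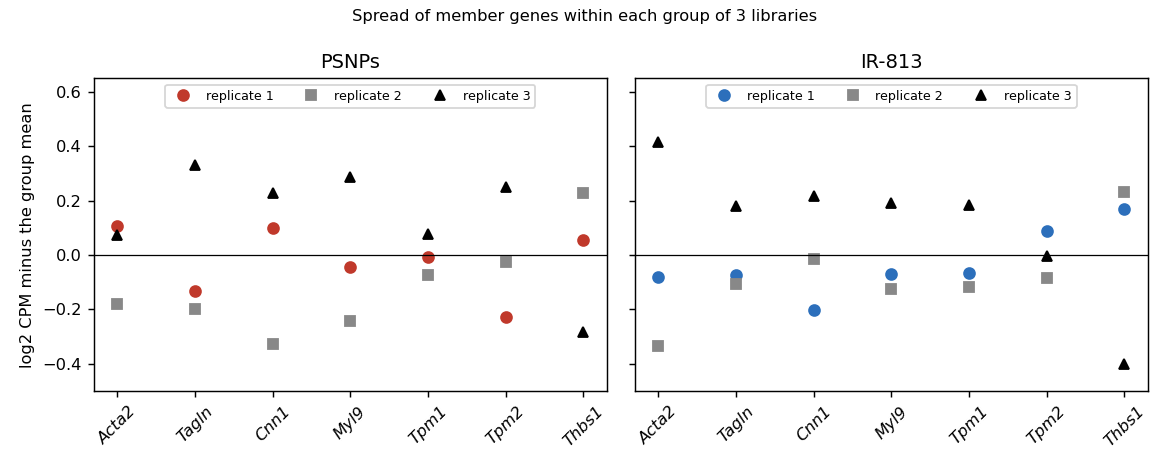
Each library's log2 CPM (pseudocount 0.5) minus the mean of its own group, for 7 genes of the set, with PSNPs on the left, IR-813 on the right and 1 symbol per replicate. Replicate 3 lies above the mean for Tagln, Cnn1, Myl9 and Tpm1 and below it for Thbs1 in both groups.

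Levels can be set against each other only per transcript length. The deposited log2 values, once unlogged and freed of a pseudocount of 1, were proportional to the counts up to 1 factor per gene and 1 per library, and that gene factor was taken as a stand-in for transcript length, which no source states. It was 1.695 times the median gene for Thbs1 and 0.426 times for Tagln. On this per-length scale the order with PSNPs was Tagln (104 ± 24.7), Tpm1 (79.5 ± 5.63), Tpm2 (31.2 ± 6.16), Myl9 (22.4 ± 4.90), Cnn1 (3.39 ± 0.772), Thbs1 (2.46 ± 0.419), Acta2 (1.90 ± 0.260), Ankrd1 (0.0702 ± 0.0612) and Actg2 (0.0161 ± 0.0279; SD, n = 3). With IR-813 it was Tagln (363 ± 40.3), Tpm1 (107 ± 11.01), Thbs1 (45.2 ± 10.2), Myl9 (38.8 ± 4.72), Acta2 (23.0 ± 6.36), Tpm2 (18.25 ± 1.15), Cnn1 (16.6 ± 2.48), Ankrd1 (0.497 ± 0.0405) and Actg2 (0.253 ± 0.255). Tagln and Tpm1 thus led in both groups. With PSNPs the libraries of Tpm2 and Myl9, of Cnn1 and Thbs1, of Thbs1 and Acta2, and of Ankrd1 and Actg2 overlapped in this order. With IR-813 those of Thbs1 and Myl9, of Acta2 and Tpm2, of Tpm2 and Cnn1, and of Ankrd1 and Actg2 overlapped.

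Set against its own family, the share of transcripts was read for 8 genes of the set, and for all of them but Actg2 the groups did not overlap. In CPM the groups did not overlap for 61.4% of all tested genes. Nothing is read from the count of shares, since the genes were picked on this contrast. Tagln made up 29.7, 31.4 and 32.2% of the transgelin transcripts with PSNPs, against 75.0, 72.7 and 75.9% with IR-813, on the per-length scale. The rest was Tagln2, the transgelin of non-muscle cells, which rose to 265 ± 44.9 CPM with PSNPs, against 144 ± 9.35 CPM with IR-813 (log2 0.88 ± 0.13; edgeR adjusted p = 0.00252), so that the 2 transgelins exchanged rank. Tagln3 had 0 reads in every library. Thbs1 made up 11.95, 12.2 and 10.4% of the thrombospondin transcripts with PSNPs, against 78.9, 81.1 and 76.7% with IR-813. In that family Thbs3 rose by 1.27 ± 0.12 on the log2 scale and Thbs4 fell by 1.13 ± 0.13 (edgeR adjusted p = 0.000368 and 0.000873), while Thbs2 was at 0.47 ± 0.23 and did not pass (adjusted p = 0.151).

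The remaining families were carried by non-muscle genes. Myl9 was 2.97, 2.655 and 2.91% of the regulatory light chains with PSNPs, against 6.52, 6.31 and 7.71% with IR-813. The non-muscle light chain genes Myl12b (log2 0.49 ± 0.10, edgeR adjusted p = 0.00719) and Myl12a (0.53 ± 0.14, adjusted p = 0.0218) rose, though the call for Myl12a was lost without any one of the 3 IR-813 libraries (adjusted p up to 0.0772). The essential light chain Myl6 stood at 0.46 ± 0.16 (adjusted p = 0.0554). Cnn1 was 0.648, 0.451 and 0.665% of the calponins counted here with PSNPs, against 2.05, 2.42 and 3.08% with IR-813, the rest being Cnn3 (log2 −0.19 ± 0.09, adjusted p = 0.122). Acta2 was 0.0384 ± 0.00406% of the actins with PSNPs, against 0.508 ± 0.130% with IR-813. Beta-actin (Actb), the main cytoplasmic actin, stood at 4497 ± 288 CPM with PSNPs and 4239 ± 180 CPM with IR-813 (log2 0.09 ± 0.11, adjusted p = 0.560).

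The other cytoplasmic actin, Actg1, rose by 0.33 ± 0.11 on the log2 scale (edgeR adjusted p = 0.0447), a call that was lost without any one of the IR-813 libraries or PSNPs replicate 1 (adjusted p up to 0.143). The striated-muscle actins Acta1 and Actc1 had at most 10 and 3 reads in any library. Tpm1 made up 11.6 ± 1.25% and Tpm2 4.56 ± 1.09% of the tropomyosins with PSNPs, against 17.0 ± 1.52% and 2.90 ± 0.151% with IR-813. Of the non-muscle tropomyosins, Tpm3 rose by 0.32 ± 0.07 (adjusted p = 0.0111, but 0.0623 at most without IR-813 replicate 1 or 2) and Tpm4 stood at 0.08 ± 0.12 (adjusted p = 0.599). Of the ankyrin-repeat relatives of Ankrd1, Ankrd2 had at most 2 reads and Ankrd23 fell by 0.69 ± 0.23 (adjusted p = 0.0467). The call for Ankrd23 was lost without any one of the 6 libraries (adjusted p from 0.0695 to 0.1555). In all, 6 of the 13 tested paralogs of the set rose and 2 fell (20.9% and 20.1% over all tested genes), and their median was 0.33 on the log2 scale. There were 3 higher when IR-813 replicate 1 or 2 was left out and 1 lower when any library but PSNPs replicate 3 was left out.

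**Figure D3:**
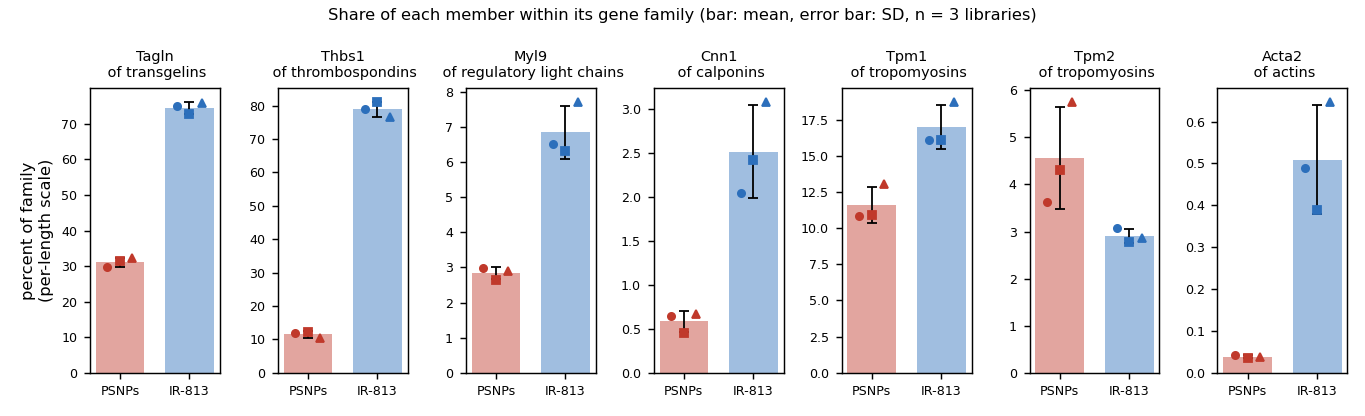
Percent of the family's summed per-length values for 7 genes of the set, with PSNPs left of IR-813, bars at the mean, error bars for the SD of 3 libraries, 1 symbol per library, and a separate axis from 0 in each panel. Tagln is at 31.1 ± 1.29% with PSNPs and 74.5 ± 1.64% with IR-813; Tpm2 is the one gene with a larger share with PSNPs.

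Other genes of the smooth-muscle contractile machinery included some that rose and some that fell. Of 16 listed genes 12 were tested, of which 4 rose and 3 fell, with a median log2 fold change of 0.01. Over all tested genes 20.9% rose and 20.1% fell, with a median of −0.01. Csrp1, a LIM protein bound to actin bundles, rose to 621 ± 88.4 CPM with PSNPs, against 282 ± 25.8 CPM with IR-813 (log2 1.14 ± 0.13, edgeR adjusted p = 0.000781). Pgm5, a protein of muscle adhesion plaques, rose by 1.53 ± 0.25 (adjusted p = 0.00348). Myh11, the smooth-muscle myosin heavy chain, had 9.75, 11.5 and 5.27 CPM with PSNPs, against 4.47, 4.15 and 4.44 CPM with IR-813. It rose by 1.02 ± 0.28 (adjusted p = 0.0250), the opposite direction to Acta2, Tagln and Cnn1. Mylk, the kinase of the light chain, rose by 0.88 ± 0.27, and Fhl1, Lmod1 and Nexn, genes of actin filaments and their anchorage, fell by 0.32 ± 0.08, 0.56 ± 0.16 and 0.41 ± 0.13. The calls for Myh11, Lmod1 and Nexn were lost without any one library other than PSNPs replicate 3, that for Mylk without IR-813 replicate 1 or 2 or PSNPs replicate 1 or 2, and that for Fhl1 without any IR-813 library or PSNPs replicate 1 (adjusted p up to 0.0880, 0.08005, 0.124, 0.125 and 0.0708). Leaving out IR-813 replicate 1 or 2 or PSNPs replicate 1 gave 2 higher and 0 lower genes, and leaving out IR-813 replicate 3 gave 3 and 0. Leaving out PSNPs replicate 2 gave 2 higher and 1 lower. Smtn, the smooth-muscle protein smoothelin, was at 0.04 ± 0.11 and Cald1, caldesmon, at −0.35 ± 0.29; both, chosen after their values were seen, did not pass.

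Cytoskeletal targets of MRTF and SRF outside the set also went both ways. Of 26 tested genes 7 rose and 3 fell, beside 20.9% and 20.1% of all tested genes, and the median log2 fold change was 0.23. Whether these shares differ was not tested. This list shares genes with the paralogs above, so the 2 counts are not separate results. Tagln2, Tpm3, Actg1 and Myl12a rose in both, and Tpm4, Actb, Myl6 and Cnn3 are in both without a call. Tes, a focal adhesion protein, rose to 143 ± 2.49 CPM with PSNPs, against 72.6 ± 3.88 CPM with IR-813 (log2 0.98 ± 0.08, edgeR adjusted p = 0.000209). The fibronectin receptor subunit Itga5 rose by 0.68 ± 0.08 (adjusted p = 0.00121). Vcl (vinculin), Actn1 (alpha-actinin) and Fhl2, a LIM cofactor, fell by 0.66 ± 0.13, 0.68 ± 0.14 and 0.66 ± 0.21 (adjusted p = 0.00644, 0.00984 and 0.0393), and the call for Fhl2 was lost without any one library other than PSNPs replicate 3 (up to 0.135). Leaving out PSNPs replicate 3 gave 15 higher and 6 lower genes in this list, and leaving out IR-813 replicate 1, 2 or 3 gave 4, 3 and 4 higher ones.

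Immediate early genes, which SRF drives with cofactors of the TCF family after growth-factor signals, included 7 that fell and 3 that rose among 14 tested, with a median log2 fold change of −0.32; over all tested genes 20.1% fell and 20.9% rose. Dusp1 and Dusp5, genes of phosphatases that switch off MAP kinases, had log2 fold changes of −2.48 ± 0.19 and −2.88 ± 0.24 (edgeR adjusted p = 0.000190 and 0.000249). Dusp5 stood at 13.0 ± 1.97 CPM with PSNPs and 96.05 ± 26.0 CPM with IR-813. The transcription factor genes Fosb and Egr1 fell by 1.27 ± 0.20 and 0.82 ± 0.13 (adjusted p = 0.00286 and 0.00297). Btg2 (0.56 ± 0.10), Egr3 (0.82 ± 0.20) and Ier3 (0.43 ± 0.13) rose, and the calls for Egr3 and Ier3 were lost without any one of the IR-813 libraries (adjusted p up to 0.0671 and 0.104), which left 1 higher gene.

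Srf itself, named after its value was seen, stood at 72.3 ± 3.13 CPM with PSNPs and 91.1 ± 2.19 CPM with IR-813 (log2 −0.33 ± 0.08, edgeR adjusted p = 0.0135). The groups did not overlap, but the call was lost without IR-813 replicate 1 or 2 (adjusted p up to 0.0779). Mrtfa and Mrtfb, the actin-sensing cofactors, were not analysed here.

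YAP and TEAD targets outside the set were lower more often than higher. Of 21 tested genes 12 fell and 3 rose, with a median log2 fold change of −0.61, beside −0.01 over all tested genes, of which 20.1% fell and 20.9% rose. The 12 include Edn1, which had 0 to 4 reads per library with PSNPs and 17 to 30 with IR-813. Edn1 passed the count filter only through its IR-813 libraries, so it had to differ to be tested. Amotl2, which encodes an angiomotin that restrains YAP, stood at 25.7, 26.1 and 24.6 CPM with PSNPs, against 138, 136 and 118 CPM with IR-813 (log2 −2.36 ± 0.10, edgeR adjusted p = 5.24e-05). Ccn2, connective tissue growth factor, counted under the symbol Ctgf, had 6.21, 4.83 and 6.42 CPM with PSNPs, against 42.2, 41.5 and 33.4 CPM with IR-813 (log2 −2.74 ± 0.16, adjusted p = 0.000101). Ccn1, a matrix protein counted as Cyr61, had 26.0, 23.0 and 28.2 CPM with PSNPs, against 75.9, 87.1 and 76.1 CPM with IR-813 (log2 −1.63 ± 0.11, adjusted p = 0.0001515). In all 3 the groups were far apart and the libraries of a group close together. The coagulation starter F3 (0.60 ± 0.11), the growth-factor binder Igfbp3 (0.72 ± 0.14) and Myof (0.86 ± 0.21), a membrane-repair protein, rose, and the call for Myof was lost without IR-813 replicate 2 or 3 or PSNPs replicate 1 (adjusted p up to 0.0665). Leaving out 1 library left between 9 and 12 genes that fell.

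Of 15 tested genes in the list of YAP, TEAD and Hippo regulators 3 rose and 0 fell by edgeR, beside 20.9% and 20.1% of all tested genes. In this list 1 was lower at an unadjusted p under 0.05 and 1 was lower by DESeq2. Tead3 and Tead2, DNA-binding partners of YAP, rose by 0.49 ± 0.10 and 0.48 ± 0.11, and the kinase gene Stk3 by 0.36 ± 0.10 (edgeR adjusted p = 0.00699, 0.0124 and 0.0233). The call for Tead2 was lost without IR-813 replicate 2 (0.06735) and that for Stk3 without any one library other than PSNPs replicate 3 (up to 0.110). Yap1, chosen after its value was seen, had 63.4, 60.5 and 28.9 CPM with PSNPs, against 39.7, 34.2 and 35.4 CPM with IR-813 (log2 0.48 ± 0.28, adjusted p = 0.203). The Hippo kinase gene Lats1 was at −0.69 ± 0.24 (adjusted p = 0.0573). Lats2, another Hippo kinase gene, and Amotl2 were counted among the targets above and not in this list. Lats2, chosen after its value was seen, was called lower, at −0.73 ± 0.19 (edgeR adjusted p = 0.0212). Leaving out PSNPs replicate 3, which had the least Yap1, gave 6 higher and 2 lower regulators, and leaving out IR-813 replicate 2 gave 1 higher.

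**Figure D4:**
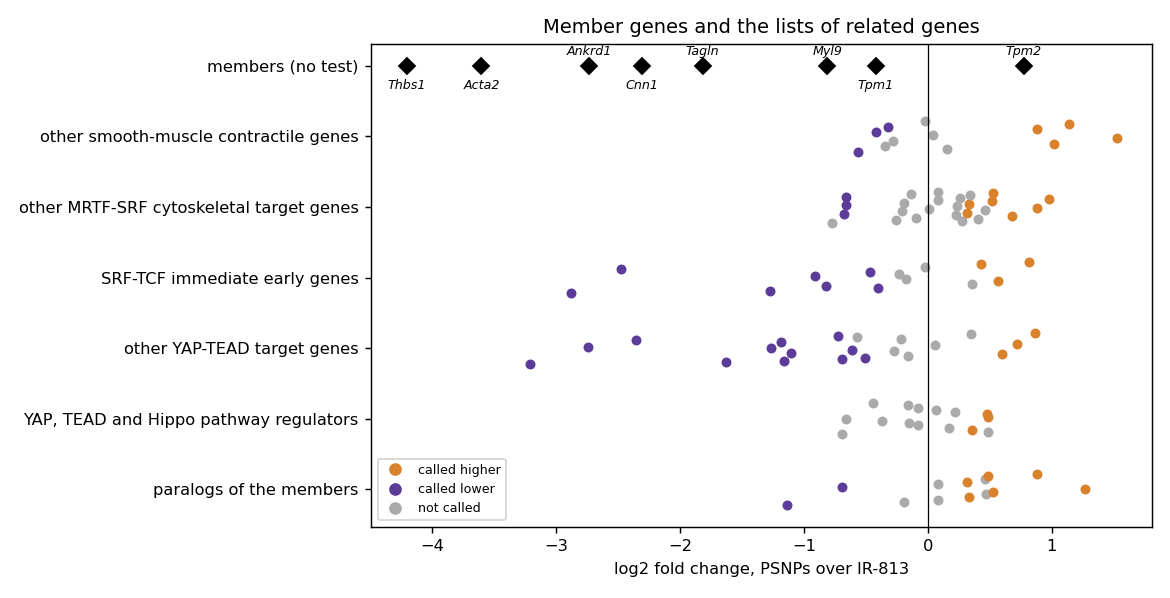
log2 fold change, PSNPs over IR-813, of the 8 tested genes of the set (black diamonds, no test) and of each tested gene in 6 lists of related genes (orange, called higher; purple, called lower; grey, not called by edgeR). The YAP-TEAD targets include 12 purple and 3 orange points, the MRTF-SRF cytoskeletal targets 3 and 7.

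The profiles most like those of 3 members were sought among 9708 genes with a mean of at least 5 CPM, by the root mean square difference of log2 CPM over the 6 libraries after each gene was centred on its own mean. The nearest to Tagln were Nkx2-2 (0.0739), Sox10 (0.0826) and Serpinf1 (0.105). Nkx2-2 and Sox10 encode transcription factors of the oligodendrocyte lineage. Among the other members Cnn1 came closest to Tagln, at 0.229 and in place 49. The nearest to Acta2 were Sez6l2 (0.246), Matn4 (0.307) and Cdkn1c (0.340), with Cnn1 in place 61 and Thbs1 in place 67. The nearest to Thbs1 were the neuronal gene Gad1 (0.220) and the stress genes Trib3 (0.329) and Cryab (0.330), with Acta2 in place 17. This measure follows the size of the difference between the treatments, and it is a description with no test.

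Markers of the cells that could carry these transcripts were read in each library. By abundance, Gfap of astrocytes took a place between 7 and 18 in every library and Aif1 of microglia one between 3796 and 7712. Other microglia markers stood above or below Aif1. Csf1r, the highest of that list, had means of 225 CPM with PSNPs and 327 CPM with IR-813. P2ry12, the lowest, had 1.32 and 6.47 CPM, in the same order, and Gfap had 3411 and 2950 CPM. The libraries thus held RNA of other glia beside the labelled microglia. The 12 smooth-muscle and pericyte markers summed to 135 to 176 CPM with PSNPs and 159 to 169 CPM with IR-813, so the sums overlapped. Some mural genes of this list were at or near 0, and others were not. Rgs5 and Abcc9 had 0 reads in every PSNPs library and at most 6 and 3 in an IR-813 library. Higd1b had at most 1 read in any library. Myocd, the smooth-muscle cofactor of SRF, had at most 1 read with PSNPs and 4 to 7 with IR-813. Des, the muscle intermediate filament, had 3 to 10 reads with PSNPs and 7 to 22 with IR-813. In contrast, 6 of the 12 markers exceeded 5 CPM in at least 1 library. With PSNPs the mean CPM was 29.43 for Pdgfrb, 48.36 for Notch3, 46.01 for Anpep and 8.844 for Myh11. With IR-813 the means were 44.72, 29.6, 39.9 and 4.354, in the same order. Whether mural cells were present was not tested. The pericyte receptor gene Pdgfrb and Mcam fell by 0.60 ± 0.13 and 0.94 ± 0.11 (edgeR adjusted p = 0.00953 and 0.000810). Kcnj8, at 2.09 ± 0.49, and Notch3, at 0.71 ± 0.22, rose, but their calls were lost without IR-813 replicate 2 or 3 for Kcnj8 and without any one library other than PSNPs replicate 3 for Notch3 (adjusted p up to 0.0576 and 0.126). Kcnj8 had 14 to 43 reads per library with PSNPs and 4 to 9 with IR-813. It passed the count filter only through its PSNPs libraries, so it had to differ to be tested. Anpep was at 0.21 ± 0.14 and did not pass (adjusted p = 0.272).

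The other marker lists were read the same way, and the genes named from them were chosen after their values were seen. Over all tested genes 20.1% fell and 20.9% rose by edgeR. The 8 oligodendrocyte-lineage markers summed to 3275 to 3766 CPM with PSNPs and 6027 to 7009 CPM with IR-813, and all 8 fell. The 8 neuron markers summed to 118 to 151 CPM with PSNPs and 270 to 283 CPM with IR-813, and 6 of the 7 tested fell. The 6 include Snap25, which had 9 reads in each PSNPs library and 92 to 120 with IR-813. Snap25 passed the count filter only through its IR-813 libraries. The 9 microglia markers summed to 409.5 to 569.5 CPM with PSNPs and 694 to 979 CPM with IR-813, and 7 of the 9 fell. Genes within each of the other 3 lists differed from their sum. The 9 fibroblast and meningeal markers counted here summed to 125 to 166 CPM with PSNPs and 294 to 377 CPM with IR-813, but of the 6 tested only Pdgfra fell, a gene that oligodendrocyte progenitors also express. It stood at 78.8 ± 18.2 CPM with PSNPs and 261 ± 25.9 CPM with IR-813. The matrix genes Postn and Fbln1 rose (log2 1.78 ± 0.29 and 0.77 ± 0.15, edgeR adjusted p = 0.00340 and 0.00707), and the median log2 fold change of the list was 0.48. The collagen genes Col1a1 (21.1 ± 4.76 CPM with PSNPs and 38.7 ± 14.25 CPM with IR-813) and Col3a1 (27.35 ± 2.60 CPM with PSNPs and 19.9 ± 13.7 CPM with IR-813) did not pass (adjusted p = 0.0551 and 0.549), and Col1a2 had 0 reads in every library.

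The 8 endothelial markers summed to 19.6 to 29.4 CPM with PSNPs and 11.4 to 12.8 CPM with IR-813, a difference carried by Flt1 (21.0 ± 4.597 CPM with PSNPs and 4.34 ± 0.261 CPM with IR-813). Of the 6 tested, Flt1 rose and Pecam1 fell (log2 −1.01 ± 0.29, edgeR adjusted p = 0.0290), a call that was lost without IR-813 replicate 2 or 3 or PSNPs replicate 2 (adjusted p up to 0.106). Vwf (−0.77), Kdr (−0.71) and Cdh5 (−0.60) did not pass, the median was −0.65, Emcn had 0 reads in every library and Cldn5 at most 1. The 8 astrocyte markers summed to 7412 to 8271 CPM with PSNPs and 6278 to 8006 CPM with IR-813, which overlapped. Yet 4 of the 8 rose by edgeR, beside 20.9% of all tested genes, with a list median of 0.38. Aldh1l1 and Sox9 rose by 1.502 ± 0.12 and 0.42 ± 0.08 (adjusted p = 0.000197 and 0.00741). S100b (0.55 ± 0.15) and Gja1 (0.34 ± 0.11) also rose, but the call for S100b was lost without IR-813 replicate 1 or 2 or PSNPs replicate 2, and that for Gja1 without any one library other than PSNPs replicate 3 (adjusted p up to 0.0909 and 0.158). The part of these cells in the differences of Acta2, Tagln, Cnn1 and Thbs1 was not tested.

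**Figure D5:**
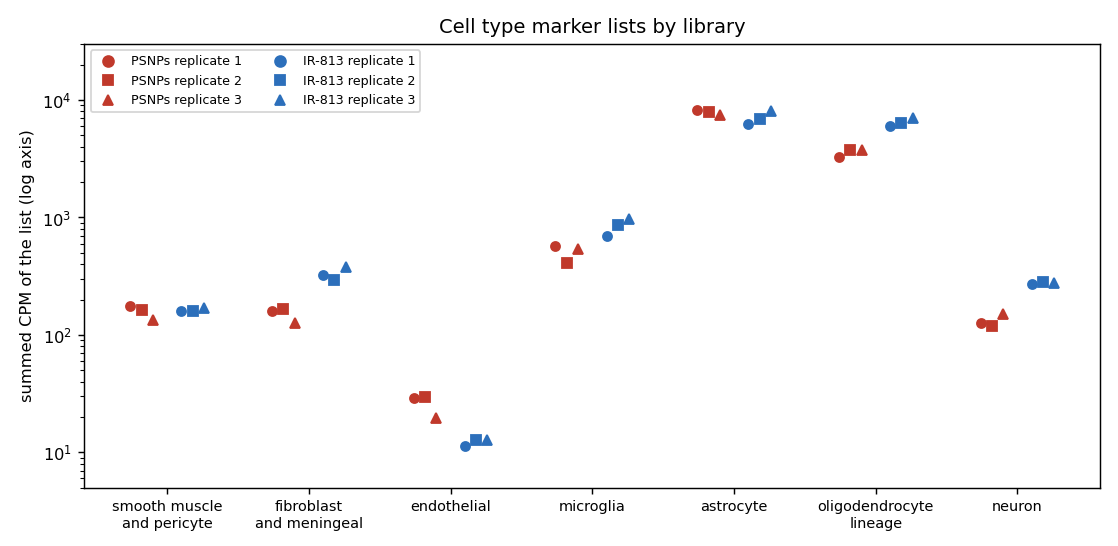
Summed CPM of each marker list in each library on a log axis, with PSNPs in red left of IR-813 in blue and 1 symbol per replicate. The smooth-muscle and pericyte and the astrocyte sums overlap between the groups, and the fibroblast, microglia, oligodendrocyte and neuron sums are lower with PSNPs.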

How the data were processed

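Per gene symbol, the authors deposited raw read counts for 6 libraries. They also deposited log2 values, with no scaling given per the labels. Build mRatBN7.2 and bcl2fastq come from the submitters' processing notes. Aligner, counter and strandedness were not given in the sources used here, so overlapping, antisense and near-identical genes may share reads. Counts were filtered with filterByExpr (minimum count 10), TMM-scaled and tested over 11679 genes with edgeR 4.0.16 in R 4.3.3 (glmQLFit, glmQLFTest, treatment as the only term), with Benjamini-Hochberg adjustment over all of them and a threshold of 0.05. Standard errors are the fold change divided by the square root of F. The fit was tested on simulated data. Alternatives used DESeq2 1.42.0, limma 3.58.1 on the deposited log2 values, other scalings, no filter, a replicate block, and each library left out. In the scale check over 10559 genes with at least 20 counts in each library, at least 99.0% of values per library lay within 0.05 log2 units of proportionality. No 2 libraries of a group were duplicates. The members and lists were chosen with earlier results of these data known. Named genes are all members, the 4 of each list with the smallest p, counts of 5 or fewer in full, all paralogs and the mural markers. One gene that this rule names and 1 further list are not reported here. Ccn1 and Ccn2 were found under synonyms. The ratios of pooled rates sum the reads of the 3 libraries of a group, so they leave out the spread between libraries. Reads carry no molecular identifiers.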

Additional observations from a re-analysis of the deposited data

How the results depend on the processing

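All 8 tested members kept their direction under DESeq2, RLE size factors, library size alone, no count filter, the deposited log2 values, the replicate block and with each library left out. The members were picked on this contrast in the same libraries, so this gives no independent support for their differences. On the deposited log2 values, where a pseudocount of 1 shrinks low genes, the log2 fold change was −3.02 for Acta2, −2.01 for Cnn1, −3.72 for Thbs1 and −0.49 for Ankrd1. With 1 library left out Ankrd1 ranged from −3.26 to −2.20. Over the whole table, leaving out 1 library gave 1339 to 3591 higher and 1473 to 3478 lower genes. The same ranges were 2 to 5 higher and 0 to 3 lower for contractile genes, 3 to 15 and 2 to 6 for MRTF-SRF targets, 1 to 4 higher immediate early genes, 1 to 6 and 0 to 2 for YAP regulators, and 3 to 9 and 1 to 2 for paralogs. DESeq2, RLE, library size alone, the deposited log2 values and the replicate block each gave 1 lower YAP regulator. DESeq2, the deposited log2 values, no filter and the replicate block gave 1 lower paralog. With the replicate block, 2035 genes were higher and 2124 lower over the whole table and 1 contractile gene was lower, while 12 YAP-TEAD targets were lower as before. Same-numbered libraries had correlations of deviations of −0.00585, 0.0145 and 0.121, and differently numbered ones had −0.174 to 0.184. With 3 libraries per group these values cannot decide whether replicate numbers pair the libraries. The cause of these shifts was not tested. Depth limits Actg2 and Ankrd1, with few reads each.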
